A study of Mus musculus with 4 samples.

Results

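Chromatin remodelers of the SWI/SNF, ISWI, CHD and INO80 families were examined in mouse embryonic stem cells depleted of eIF4A3, the RNA helicase at the core of the exon junction complex. The members were the protein-coding genes whose symbols start with Smarc, Chd followed by a digit, or Ino80, together with Arid1a, Arid1b, Arid2, Pbrm1, Brd7, Brd9, Actl6a, Ruvbl1, Ruvbl2, Bptf, Ep400 and Srcap. These are 40 genes of the 37311 gene identifiers in the deposited counts, and all 40 had enough reads to be tested. Cells of the J1 line (strain 129S4/SvJae), cultured without feeders in serum and leukaemia inhibitory factor, carried short hairpins against eIF4A3 (sheIF4a3-2 and sheIF4a3-3), underwent 3 days of puromycin selection and were lysed on day 4.5 after a 1 min exposure to cycloheximide, which stalls ribosomes on mRNA. From them, 2 libraries of ribosome protected fragments (RPF), the stretches of mRNA covered by ribosomes, and 2 libraries of total RNA were sequenced. All 4 libraries are from knockdown cells, so every value below compares RPF with total RNA within the knockdown, and no effect of losing eIF4A3 was measured. Which hairpin each replicate carried is not given in the sources used here.

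Remodelers use ATP to slide, evict or restructure nucleosomes, and many of them are the motors of multi-subunit complexes. SWI/SNF complexes (BAF, PBAF and ncBAF) open enhancers and promoters, ISWI and CHD enzymes space nucleosomes or, in the NuRD complex, help silence genes, and the INO80 and SRCAP complexes handle the histone variant H2A.Z. Embryonic stem cells are known for a BAF complex built on Smarca4, Arid1a, Smarcc1 and Smarcd1, called esBAF, and for a dependence on Chd1, Chd4, Ep400 and Ino80 in self-renewal.

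The bases around the annotated start codon, where ribosomes begin translation, are shown for 10 members called in either direction. Each is 23 bases of the principal transcript in GENCODE M21 (GRCm38, sense strand), with capitals for the ATG, the base 3 before it and the base directly after it. The first 5 genes had a higher ratio of RPF to total RNA in every setting tried and the next 5 had a lower ratio, each with at least 1 setting in which its call was lost.
Smarcb1: ccccgccGccATGAtgatgatgg
Actl6a: gacagtaGccATGAgcggcggcg
Ino80e: ctggcggGtcATGAacggaccag
Ruvbl1: actcggcAaaATGAagattgagg
Ruvbl2: ggtgtgcAtcATGGcaaccgtgg
Arid2: tggcaaaAtaATGGcaaactcga
Pbrm1: gttggatTccATGGgttccaaga
Chd6: cccttaaTtgATGAaaatgaaaa
Chd9: gagtttcAaaATGAcagacccaa
Ino80d: gagtcacGtgATGTatgaaggga
A purine at the base 3 before the start codon is the stronger form of the Kozak context. Among members whose context was read, it was present in 9 of 10 called higher and 3 of 5 called lower. Of those that did not pass, 18 of 20 had it. In all, the purine was present in 30 of the 35 members read (85.7%), against 84.5% of 20371 protein-coding genes. The context of Ino80c, also called lower, was not read. The full form, with a G after the ATG as well, was found in 13 of the 35 (37.1%), against 41.5% of all protein-coding genes. These are matches in the annotation, not measured start sites.

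Library totals ran from 7615277 to 9434987 gene counts, which puts the upper limit for a count of 0 between 0.318 and 0.394 CPM (counts scaled to the library total), for counting error only. The label of the cells matched their markers. All 8 stem cell markers reached 10 CPM in total RNA, and together they summed to 4678 and 4992 CPM in RPF and to 4352 and 4355 CPM in total RNA. The 7 fibroblast markers summed to 10.6 and 10.4 CPM in RPF and to 6.35 and 6.08 CPM in total RNA, with Dcn and Postn at 0 in total RNA. Neural markers summed to 172 and 169 CPM in RPF and to 124 and 109.6 CPM in total RNA, nearly all from Tubb3 and Neurod1. Primitive endoderm markers summed to 32.1 to 48.8 CPM across the libraries, mesoderm and trophectoderm markers to under 10 CPM. Eif4a3 itself had 1640 and 1325 RPF counts and 1229 and 975 total RNA counts, and with no control cells these do not give the depth of its knockdown.

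Of the 40 remodeler genes, 11 had a higher ratio of RPF to total RNA than the average gene, 6 had a lower one and 23 did not pass (edgeR quasi-likelihood test, Benjamini-Hochberg adjusted over 13809 genes, threshold 0.05). Over all tested genes 20.5% were called higher and 21.2% lower (41.7% in either direction), and 27.5% and 15% of the members were. The members' median log2 ratio was 0.26, against -0.02 over all tested genes. Libraries of the fractions did not overlap for 17 members with RPF on top (34.9% of all genes did so) and for 10 with RPF below (37.9% of all genes). The higher members were Smarca4, Smarca2, Smarcb1, Smarcc1, Actl6a, Smarcal1, Chd4, Ino80b, Ino80e, Ruvbl1 and Ruvbl2. The lower ones were Arid2, Pbrm1, Chd6, Chd9, Ino80c and Ino80d. In bulk samples, fewer cells of a type and less RNA per cell cannot be told apart. With library size only, which moved the median of all genes to -0.46, 6 members were higher and 11 lower (15% and 27.5%, against 8.86% and 35.9% of all genes under that scaling).

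**Figure D1:**
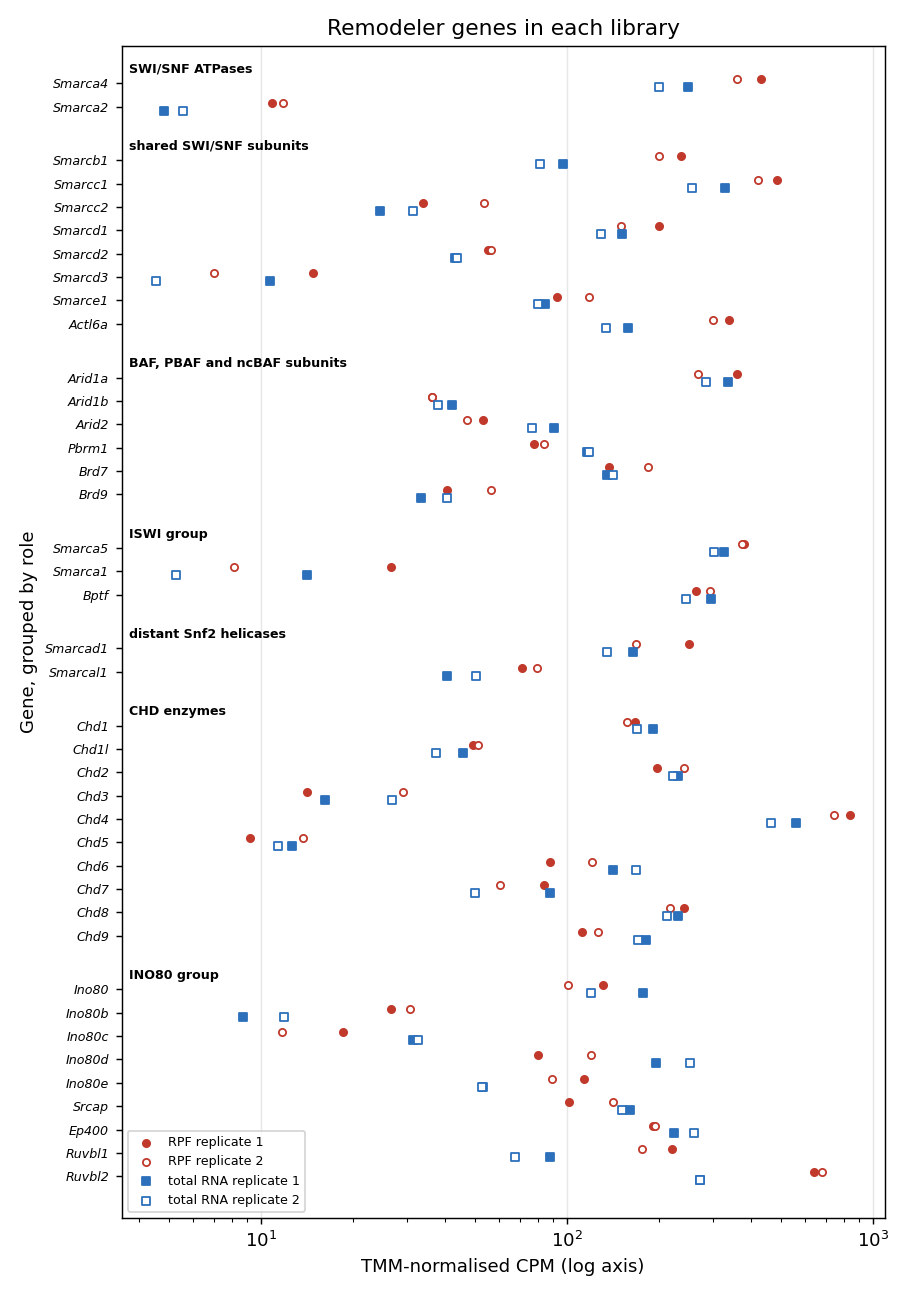
Normalised CPM (log axis) of the 40 remodeler genes in each library, grouped by role, with RPF as circles above total RNA as squares and replicate 2 as open symbols. Chd4 and Ruvbl2 stand highest among the RPF values, and both circles of Ruvbl2 (641 and 677 CPM) lie far right of its squares (272 CPM in both).

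**Figure D2:**
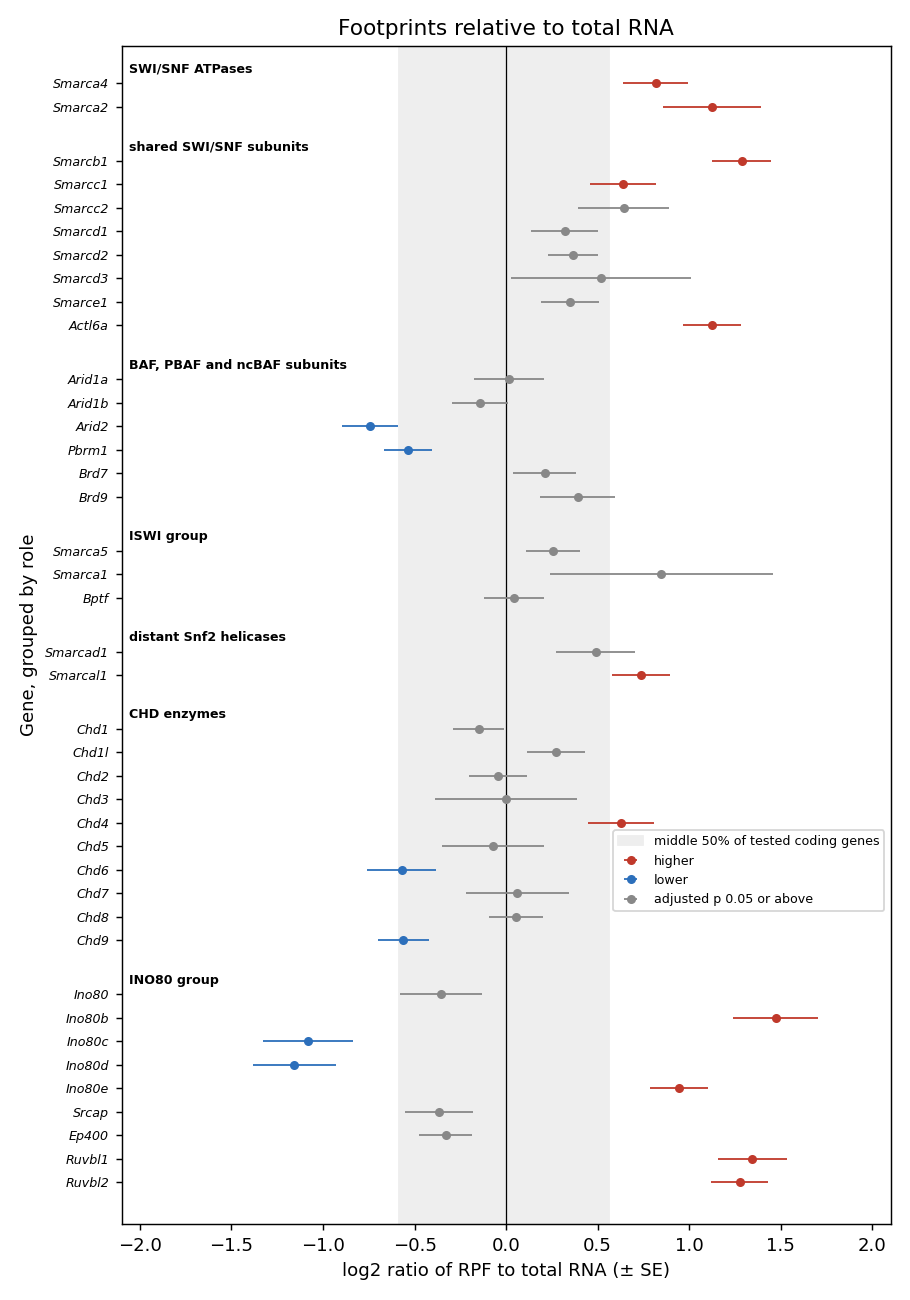
Log2 ratio of RPF to total RNA with its SE for each remodeler gene, coloured by its call at an adjusted p of 0.05, over the middle 50% of 12655 tested protein-coding genes (-0.58 to 0.56). The shared SWI/SNF subunits all lie right of 0, where library size only moves Smarcd1, Smarcd2 and Smarce1 below 0 and the median of all genes to -0.46, and the INO80 group holds both the highest value (Ino80b, 1.47) and the lowest (Ino80d, -1.16).

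The catalytic ATPases of SWI/SNF both had a higher ratio. Smarca4 (BRG1, ENSMUSG00000032187.9), the motor of esBAF, stood at 429 and 359 CPM (scaled by trimmed mean of M-values, as are all CPM of members) in RPF replicates 1 and 2, against 247 and 200.1 CPM in total RNA. The fractions did not overlap, and the log2 ratio was 0.82 ± 0.18 SE (adjusted p = 0.0106). This call was lost without total RNA replicate 2 (0.67, adjusted p = 0.11) and with library size only (0.38, adjusted p = 0.0818). Smarca2 (BRM), the alternative motor, was scarce, with 84 and 81 counts in RPF and 49 and 54 counts in total RNA. Its log2 ratio was 1.13 ± 0.27 (adjusted p = 0.0147), and it was no longer called without total RNA replicate 1 (1.02, adjusted p = 0.0912) or with library size only (0.70, adjusted p = 0.0876).

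The shared SWI/SNF subunits form the core and the base module of all or most of these complexes. Their log2 ratios were positive in 8 of 8 genes (median 0.58). Of these, 3 passed as higher and 0 as lower (37.5% and 0%, against 20.5% and 21.2% of all tested genes). With library size only Smarcd1 (-0.12), Smarcd2 (-0.068) and Smarce1 (-0.075) were negative, above the median of -0.46 of all genes under that scaling. Smarcb1 (SNF5, ENSMUSG00000000902.6), the core subunit that contacts the nucleosome, had 235 and 199.7 CPM in RPF against 96.8 and 81.5 CPM in total RNA. Its footprints exceeded its RNA in every pairing of libraries (1.29 ± 0.16, adjusted p = 0.00158). Actl6a (BAF53a, ENSMUSG00000027671.8), the actin-related subunit of dividing cells that is also part of INO80 and TIP60 complexes, had 338 and 300.5 CPM in RPF against 158 and 134 CPM in total RNA (1.13 ± 0.16, adjusted p = 0.00224). Both were called under every alternative tried. Smarcc1 (BAF155), the scaffold subunit of esBAF, had 485 and 421 CPM in RPF against 327 and 255 CPM in total RNA (0.64 ± 0.18, adjusted p = 0.0285). Its call ended without total RNA replicate 1 (log2 ratio 0.82) or 2 (0.47) and with library size only (adjusted p = 0.324). It also ended after a loess correction of the ratio for coding share (adjusted p = 0.0523). Coding share in this correction is the coding part of all annotated exon bases of a gene.

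The remaining shared subunits did not pass in the main edgeR fit. They were the scaffold paralogue Smarcc2 (0.64 ± 0.25, adjusted p = 0.0768), the BAF60 subunits Smarcd1 (0.32 ± 0.18), Smarcd2 (0.36 ± 0.14) and Smarcd3 (0.52 ± 0.49), and the DNA-binding subunit Smarce1 (0.35 ± 0.16). Smarcd1, the lowest of the group, had 199 and 149.7 CPM in RPF and 151 and 128 CPM in total RNA, so the fractions overlapped (adjusted p = 0.197). With replicate number added to the edgeR fit as a block, Smarcc2 (adjusted p = 8.5e-06), Smarcd1 (0.00201), Smarcd2 (0.00315) and Smarce1 (0.000952) passed as higher. Smarcd3 did not (0.0503). Smarce1 also passed after the loess correction for coding share, alone (0.0204) or with exon length (0.0105). Several of these genes share sequence with transcripts of other genes, on either strand and with overlapping genes included. Of the 28-base stretches in the principal transcript, 37.9% occur there for Smarce1, 30.7% for Smarcd3 and 24.5% for Actl6a. The median over the members was 0.901%. A stretch shared with an overlapping gene need not lie at another place in the genome. Of the exon bases of Actl6a, 11.6% overlap other genes, most of all Mrpl47 on the opposite strand. Smarcd3 overlaps Chpf2 on the opposite strand over 48.2% of its exon bases, and the strand setting of the counting is not given in the sources used here, so its counts are uncertain. Reads aligned at more than 1 place stand outside the gene counts, and their part in these ratios was not tested.

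The subunits that define the 3 kinds of SWI/SNF complex did not share that direction (median -0.063). Of these 6 genes, 0 were higher and 2 lower (0% and 33.3%, against 20.5% and 21.2% of all tested genes). Both lower genes belong to PBAF, which carries extra reader domains for acetylated histones. Arid2 (BAF200, ENSMUSG00000033237.10), the PBAF scaffold, had 53.1 and 46.9 CPM in RPF against 90.7 and 77 CPM in total RNA. Pbrm1 (polybromo, BAF180) had 77.8 and 83.7 CPM in RPF against 116 and 118 CPM in total RNA. In both genes each RPF library lay below each total RNA library, with log2 ratios of -0.74 ± 0.15 (adjusted p = 0.0082) for Arid2 and -0.54 ± 0.13 (adjusted p = 0.016) for Pbrm1. The call of Arid2 was lost without total RNA replicate 1 (-0.63, adjusted p = 0.0625), and that of Pbrm1 without total RNA replicate 1 (adjusted p = 0.089) or 2 (0.111). Brd7, the bromodomain protein of PBAF, did not pass (0.21 ± 0.17, adjusted p = 0.362).

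Among the BAF scaffolds, Arid1a had 358 and 268 CPM in RPF and 336 and 284 CPM in total RNA. The fractions overlapped and the log2 ratio was 0.014 ± 0.19 (adjusted p = 0.959). Its paralogue Arid1b was at 36.2 CPM in both RPF libraries and at 41.9 and 37.9 CPM in total RNA (-0.14 ± 0.15, adjusted p = 0.488). With library size only, which moved the median of all genes to -0.46, Arid1b passed as lower (-0.57, adjusted p = 0.03). Brd9, the bromodomain subunit specific to ncBAF, was the highest of this set and did not pass (0.39 ± 0.21, adjusted p = 0.164), with 40.3 and 56.3 CPM in RPF and 33.2 and 40.4 CPM in total RNA.

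No gene of the ISWI group passed in the main edgeR fit at an adjusted p of 0.05. With replicate number added to that fit as a block, Smarca5 (0.26, adjusted p = 0.012) and Smarca1 (0.81, adjusted p = 0.000213) passed. Bptf did not (0.048, adjusted p = 0.681). Smarca5 (SNF2H), the main ISWI motor, had 377 and 373 CPM in RPF against 326 and 302 CPM in total RNA (0.26 ± 0.15, adjusted p = 0.2). Bptf, the large subunit of the NURF complex that reads methylated histone H3, had 263 and 292 CPM in RPF and 294 and 244 CPM in total RNA (0.044 ± 0.16, adjusted p = 0.846). Smarca1 (SNF2L), the other ISWI motor, differed more between replicates than between fractions, with RPF counts of 206 in replicate 1 and 56 in replicate 2, and total RNA counts of 144 in replicate 1 and 51 in replicate 2 (0.85 ± 0.61, adjusted p = 0.299). Smarca5 shares 41.9% of its 28-base stretches with transcripts of other genes.

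Of the more distant Snf2 enzymes, Smarcal1, an annealing helicase that acts at stalled replication forks, had 71.2 and 79.8 CPM in RPF against 40.4 and 50.2 CPM in total RNA (0.74 ± 0.16, adjusted p = 0.0104). It lost its call without total RNA replicate 1 (adjusted p = 0.0899) and with library size only (0.31, adjusted p = 0.227). Smarcad1, a Fun30-type remodeler linked to heterochromatin maintenance, had 250.3 and 168 CPM in RPF against 164 and 134 CPM in total RNA. Its RPF libraries lay above total RNA but far apart, and it did not pass in the main edgeR fit (0.49 ± 0.22, adjusted p = 0.109). Smarcad1 passed as higher with replicate number as a block (0.47, adjusted p = 2.1e-06). It also passed after the loess correction for coding share, alone (0.69, adjusted p = 0.0415) or with exon length (0.93, adjusted p = 0.0154).

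CHD enzymes, named for their chromodomains, helicase and DNA-binding domain, had 1 gene higher, 2 lower and 7 of 10 not passing (median -0.022), no larger a share in either direction than over all tested genes. Chd4 (Mi-2β, ENSMUSG00000063870.6), the NuRD motor, carried the most RPF counts of any member, 6484 and 5093, against 5705 and 4504 in total RNA. At 838 and 743 CPM in RPF against 559 and 465 CPM in total RNA its log2 ratio was 0.63 ± 0.18 (adjusted p = 0.0296). That call ended without total RNA replicate 1 (adjusted p = 0.0999) or 2 (0.309), with library size only (0.329) and after correction for coding share (0.124). Its paralogues, both of low abundance, did not pass. Chd3 had 14.1 and 29 CPM in RPF and 16.2 and 26.8 CPM in total RNA (7.9e-05 ± 0.39), and Chd5, best known from neurons and testis, 9.18 and 13.7 CPM in RPF and 12.6 and 11.4 CPM in total RNA (-0.072 ± 0.28).

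Both lower CHD genes belong to the subfamily of Chd6, Chd7, Chd8 and Chd9, in which the other two did not pass. Chd9 had 112 and 126 CPM in RPF against 180.3 and 170.5 CPM in total RNA (-0.56 ± 0.14, adjusted p = 0.0176). Chd6 had 87.8 and 121 CPM in RPF against 141 and 168 CPM in total RNA (-0.57 ± 0.19, adjusted p = 0.0481). The call of Chd9 ended without RPF replicate 1 (-0.47, adjusted p = 0.0591), total RNA replicate 1 (-0.52, adjusted p = 0.128) or total RNA replicate 2 (-0.60, adjusted p = 0.0833), with ratios close to that of all libraries. The call of Chd6 ended without RPF replicate 1 (-0.35, adjusted p = 0.168) or total RNA replicate 2 (-0.44, adjusted p = 0.222) and with DESeq2 (0.0531). Corrected for exon length as well as coding share, both again fell short, at -0.21 for Chd9 (adjusted p = 0.269) and -0.34 for Chd6 (adjusted p = 0.204). Chd8, which restrains Wnt target genes, had 240.5 and 217 CPM in RPF and 229.9 and 211 CPM in total RNA (0.054 ± 0.15, adjusted p = 0.791). Chd7, the gene of CHARGE syndrome in humans, had 83.9 and 60.2 CPM in RPF and 88.1 and 50.1 CPM in total RNA (0.061 ± 0.28, adjusted p = 0.877).

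Chd1, which keeps stem cell chromatin open, had 166 and 157 CPM in RPF and 189.9 and 169 CPM in total RNA (-0.15 ± 0.14, adjusted p = 0.425). Its close relative Chd2 had 197 and 241 CPM in RPF and 230.3 and 221 CPM in total RNA (-0.044 ± 0.16, adjusted p = 0.844). The PARP-activated Chd1l, which lacks chromodomains, had 49.1 and 51.2 CPM in RPF and 45.6 and 37.4 CPM in total RNA (0.27 ± 0.16, adjusted p = 0.208). The fractions did not overlap for Chd1 and Chd1l and overlapped for Chd2. None of the 3 genes passed in the main edgeR fit at an adjusted p of 0.05. With replicate number as a block, Chd1l passed as higher (0.28, adjusted p = 0.0343). With library size only, which moved the median of all genes to -0.46, Chd1 passed as lower (-0.58, adjusted p = 0.0138). Chd2 passed in no alternative. Of its exon bases, 19.3% overlap other genes, most of all 1810026B05Rik on the same strand, and the part of this in its counts was not tested.

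The INO80 group held the widest spread, around a median of -0.33. Of its 9 genes, 4 were higher and 2 lower (44.4% and 22.2%, against 20.5% and 21.2% of all tested genes). Its higher members included the AAA+ ATPases Ruvbl1 and Ruvbl2, which form a ring shared by INO80, SRCAP and TIP60 complexes. Ruvbl2 (ENSMUSG00000003868.6) had 641 and 677 CPM in RPF against 272 CPM in both total RNA libraries, a 2.42-fold ratio (log2 1.28 ± 0.15, adjusted p = 0.00143). Ruvbl1 (ENSMUSG00000030079.9) had 219 and 176 CPM in RPF against 88.1 and 67.5 CPM in total RNA (1.34 ± 0.19, adjusted p = 0.00221). Both passed under every alternative. Transcripts of other genes, overlapping ones included, hold 66.3% of the 28-base stretches of Ruvbl1 and 16.4% of those of Ruvbl2. Of the exon bases of Ruvbl2, 15.4% overlap other genes, most of all Gys1 on the opposite strand. The exons of Ruvbl1 overlap no other gene, so its reads in particular can have been left out of its count.

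The accessory subunits of INO80 went in opposite directions. Ino80b (ENSMUSG00000030034.5) had 26.5 and 30.6 CPM in RPF against 8.71 and 11.9 CPM in total RNA, the highest log2 ratio of all members (1.47 ± 0.23, adjusted p = 0.00336). Ino80e (ENSMUSG00000030689.9) had 114 and 89.4 CPM in RPF against 53.1 and 52.5 CPM in total RNA (0.94 ± 0.16, adjusted p = 0.00411). Ino80c (ENSMUSG00000047989.5) had 18.5 and 11.7 CPM in RPF against 31.4 and 32.6 CPM in total RNA (-1.08 ± 0.24, adjusted p = 0.0121). Ino80d (ENSMUSG00000040865.8) had 80.4 and 120.0 CPM in RPF against 195 and 252 CPM in total RNA, the lowest ratio of all (-1.16 ± 0.23, adjusted p = 0.0071). In each of the 4 genes the libraries of the fractions did not overlap. The calls of Ino80b, Ino80c and Ino80e held in every alternative, and that of Ino80d in all but the joint correction for exon length and coding share (-0.56, adjusted p = 0.09). Ino80e shares 44.9% of its 28-base stretches with transcripts of other genes. Of its exon bases, 16.4% overlap other genes, most of all Doc2a on the opposite strand.

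The motors of the group sat below the average gene without passing in the main edgeR fit. With replicate number added to that fit as a block, Ino80 (adjusted p = 0.000624), Srcap (0.000146) and Ep400 (0.00115) passed as lower. They also did with library size only (0.0175, 0.0211 and 0.00779), which moved the median of all genes to -0.46. After the loess correction for coding share, Srcap (0.0426) and Ep400 (0.0222) passed and Ino80 (0.0749) did not. Ino80 itself had 131 and 100.3 CPM in RPF and 176 and 119.9 CPM in total RNA (-0.35 ± 0.22, adjusted p = 0.238). Ep400, the motor and scaffold of the TIP60 complex, had 190.2 and 193 CPM in RPF against 224 and 259 CPM in total RNA (-0.33 ± 0.15, adjusted p = 0.112). Srcap, which deposits H2A.Z, had 101 and 141 CPM in RPF against 160.5 and 151 CPM in total RNA (-0.37 ± 0.18, adjusted p = 0.15). In GENCODE M21 a second gene model, Gm42715, overlaps 65% of the exon bases of Srcap on the same strand. It has no row in the files, and how the authors' annotation treated that locus is not given in the sources used here, so the counts of Srcap are uncertain.

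Levels per length were compared between paralogues as RNA and as footprints, and protein was not measured. On the total RNA scale (CPM per kb of principal transcript), the members ran from 0.876 for Smarca2 to 117.7 for Ruvbl2, with a median of 20.3. On the RPF scale (CPM per kb of coding sequence), they ran from 1.95 for Chd5 to 475 for Ruvbl2, with a median of 28.6. Smarca4 exceeded Smarca2 by 38.8-fold and 29.8-fold per length in the RPF libraries and by 48-fold and 33.5-fold in the total RNA libraries. For Smarcc1 over Smarcc2 the excess was 14.3-fold and 7.85-fold in RPF and 10.6-fold and 6.48-fold in total RNA. Arid1a exceeded Arid1b by 9.73-fold and 7.28-fold in RPF and by 11.1-fold and 10.4-fold in total RNA. These are the paralogues that the literature assigns to esBAF, and they led in both fractions. Within the BAF60 family Smarcd1 (42.3 ± 4.8 in total RNA) stood above Smarcd2 (15.8 ± 0.17) and Smarcd3 (4.38 ± 2.5, SD, n = 2).

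Smarca5 led Smarca1 by 14.1-fold and 45.4-fold per length in RPF and by 18.1-fold and 45-fold in total RNA, where the range follows Smarca1. Chd4 led Chd3 by 63.8-fold and 27.5-fold in RPF and by 37.5-fold and 18.8-fold in total RNA, and Chd5 by 93.1-fold and 55.2-fold in RPF and by 62.6-fold and 58-fold in total RNA. Other pairs lay close together. Chd1 stood at 0.901 and 0.696 of the level of Chd2 in RPF and at 0.947 and 0.876 of it in total RNA. The exon overlap of Chd2 with other genes applies to these levels as well. Among the remaining CHD genes, Chd8 (26.9 ± 1.6 in total RNA) stood above Chd6 (14.7 ± 1.8) and Chd9 (14.6 ± 0.58), which did not differ beyond their spread, and Chd7 was lowest (6.76 ± 2.6).

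**Figure D3:**
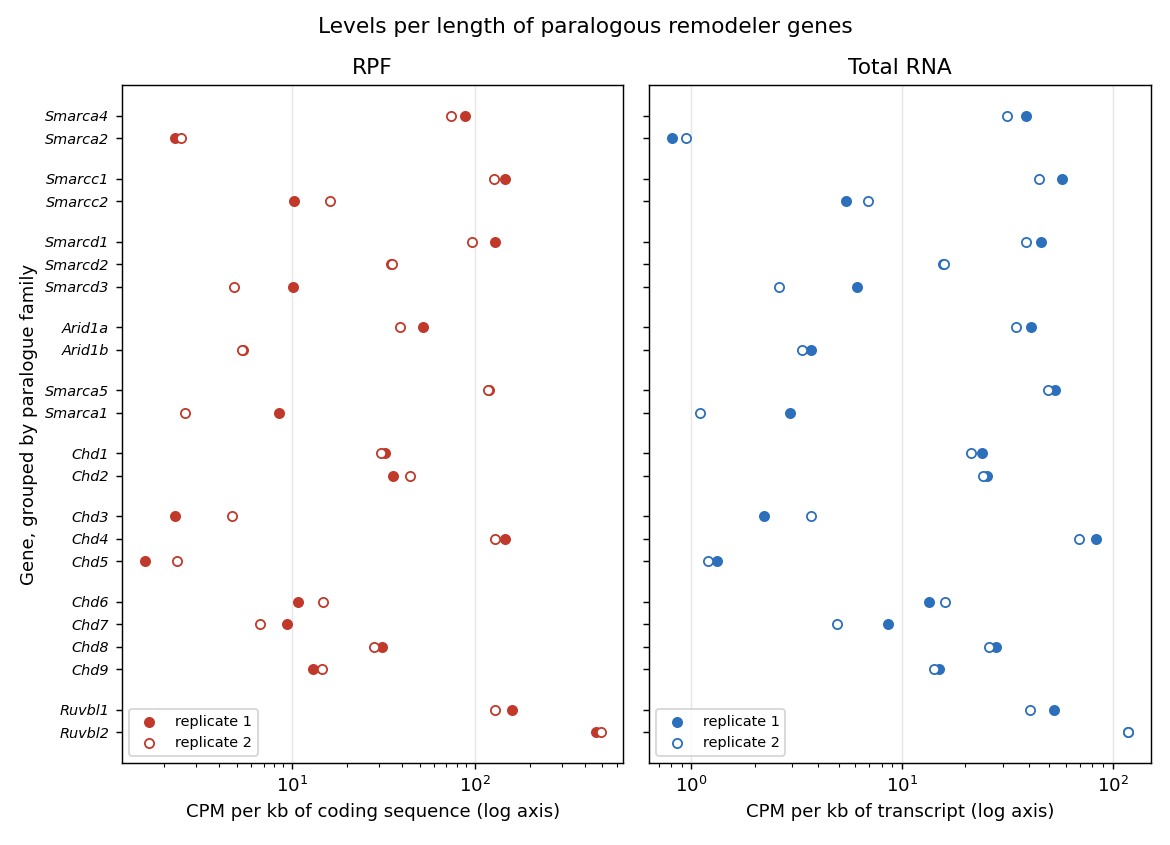
Levels per length (log axes) of paralogous remodeler genes in RPF (left, CPM per kb of coding sequence) and in total RNA (right, CPM per kb of transcript), with replicate 2 as open circles. Smarca4, Smarcc1, Arid1a, Smarca5 and Chd4 lie right of their relatives in both panels, and the replicates of Smarca1 lie far apart in both.

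The members differ in transcript structure, and its part in the ratios was not tested. Their proteins have 191 (Ino80c) to 3271 (Srcap) codons, with a median of 1101.5 against 473 for tested protein-coding genes. Of 15 members under 1000 codons, 7 were higher and 1 lower, and of 25 members of 1000 codons or more, 4 were higher and 5 lower (a boundary set after the values were seen). Among all tested protein-coding genes, 22.6% of the shorter 10801 were higher and 18.7% lower, and 10.1% of the longer 1854 were higher and 22.7% lower. As a description over genes that share the same 4 libraries, Spearman's rho between coding length and the ratio was -0.57 over the 40 members and -0.11 over 12655 protein-coding genes. For the length after the coding sequence it was -0.64 over the members and -0.39 over the protein-coding genes. For the coding share of the transcript the values were 0.088 and 0.27.

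Ino80c and Ino80d, the lowest ratios, also had the lowest coding shares, 22.9% and 22.6% of the principal transcript, against a median of 72.2% over the members and 53.5% over tested protein-coding genes. When footprints were taken per coding base and total RNA per transcript base, their log2 ratios became 1.04 and 0.99, next to a median of 1.0 over protein-coding genes (middle 50% from 0.39 to 1.61). The loess correction used a different measure, the coding share of all annotated exon bases of a gene. After it both were still called lower, Ino80c at -0.92 (adjusted p = 0.0235) and Ino80d at -0.87 (adjusted p = 0.0216). On the per-length scale the lowest members were Srcap (-0.25), Chd6 (-0.20), Pbrm1 (-0.18), Arid2 (-0.11), Ep400 (-0.11) and Chd9 (-0.08), which have 1704 (Pbrm1) to 3271 (Srcap) codons. The highest were Ino80e (2.37), Ruvbl2 (2.01), Smarcb1 (1.81) and Actl6a (1.77), and the members' median was 0.87. The annotated transcript may not be the one these cells use, and the part of this in the per-length values was not tested.

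**Figure D4:**
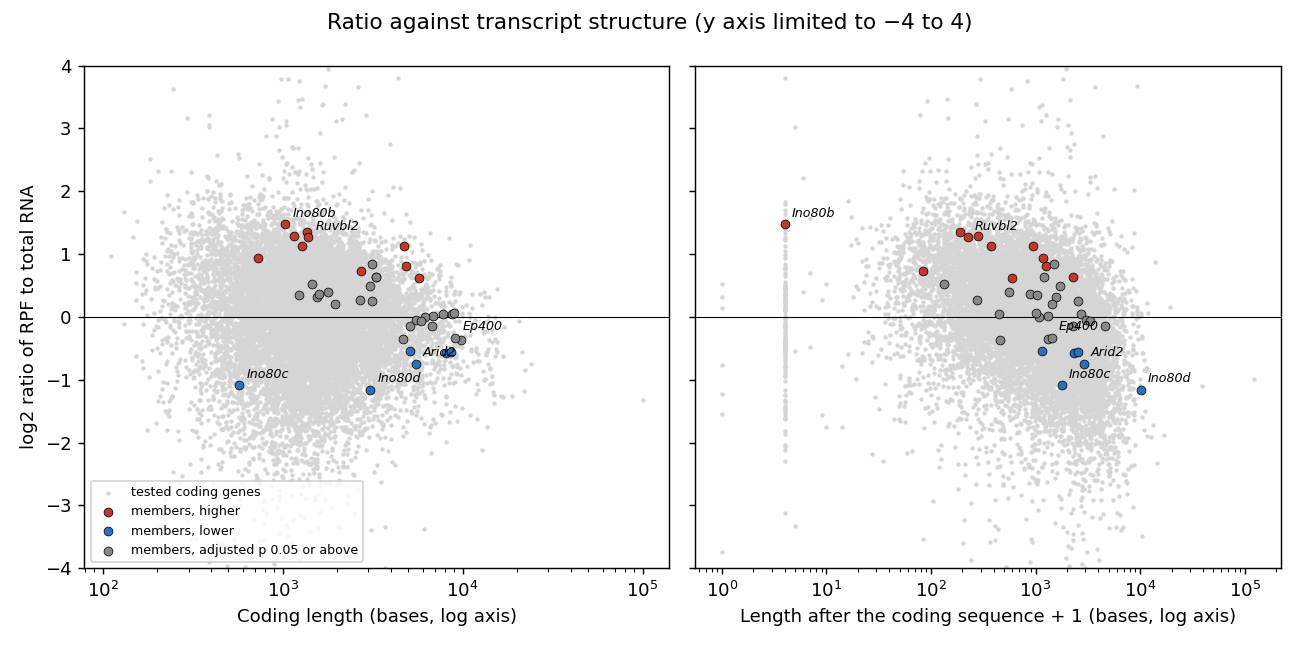
Log2 ratio of RPF to total RNA against coding length (left) and length after the coding sequence (right), in bases on log axes, for the remodeler genes in colour and 12655 tested protein-coding genes in grey. Members fall from upper left to lower right in both panels (Spearman's rho -0.57 and -0.64), with Ino80c apart from the rest in the left panel.

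Replicates of a fraction differed for some members, and in the same direction in both fractions. The replicates lay on the same side in RPF and in total RNA for 32 of 40 members (80%), against 69.2% of 13547 tested genes with a count in every library. Over the members the log2 differences between replicates 1 and 2 of RPF and of total RNA had a Spearman's rho of 0.72 (Pearson's r 0.83), against 0.46 (r 0.39) over those 13547 genes, a description over genes of the same libraries. The 3 members with replicates at least 2-fold apart in a fraction were Smarca1, Smarcd3 and Chd3. Smarca1 was higher in replicate 1 by 1.71 on the log2 scale in RPF and by 1.42 in total RNA, and Smarcd3 by 1.07 in RPF and 1.23 in total RNA. Chd3 was higher in replicate 2 by 2.06-fold in RPF and 1.66-fold in total RNA. Chd7 stood 1.39-fold higher in replicate 1 of RPF and 1.76-fold higher in replicate 1 of total RNA. With 2 hairpins named for 2 replicates and no assignment given, hairpin and culture cannot be told apart.

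**Figure D5:**
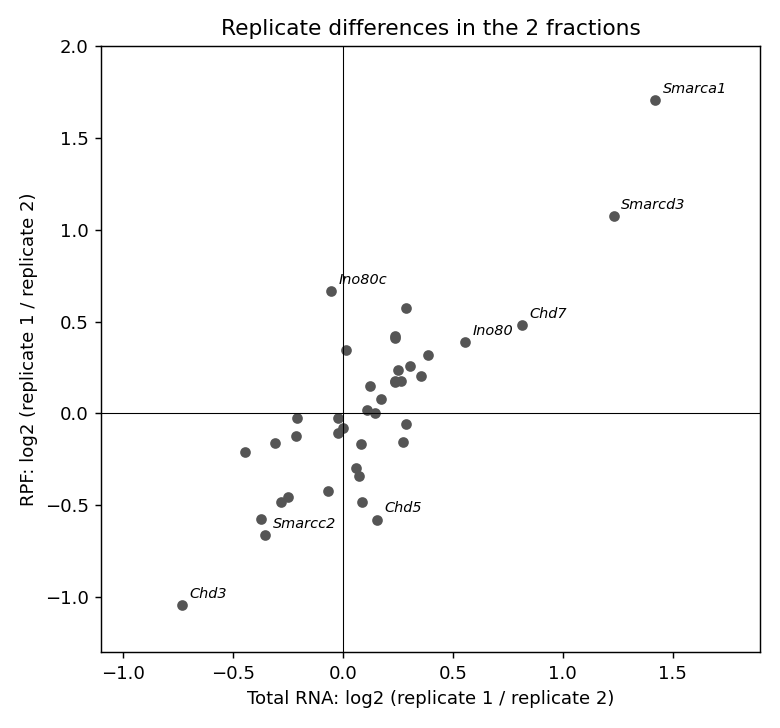
Log2 difference between replicates 1 and 2 in RPF (vertical) against the same difference in total RNA (horizontal) for the 40 remodeler genes. Smarca1 and Smarcd3 lie at the upper right and Chd3 at the lower left, and Ino80c is at 0.66 in RPF and -0.053 in total RNA.

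Further subunits of the same complexes and 2 other Snf2 enzymes, Hells and Atrx, were taken as a list of 56 partner genes, of which 55 were tested. Among them 19 were higher and 9 lower (34.5% and 16.4%, against 20.5% and 21.2% over all tested genes), with a median log2 ratio of 0.15. The histone deacetylase Hdac1 of NuRD (1.41 ± 0.19, adjusted p = 0.00208), Dmap1 of SRCAP and TIP60 (1.2 ± 0.17) and Znhit1 of SRCAP (1.10 ± 0.24) were the highest of those at 10 CPM or more. Cdk2ap1 of NuRD (-1.52 ± 0.24, adjusted p = 0.00336), Mbtd1 (-1.50 ± 0.13) and Epc2 (-0.90 ± 0.14), both of TIP60, were the lowest. By complex, 7 of 15 SRCAP and TIP60 partners were higher and 3 lower, 5 of 10 ISWI partners were higher and 1 lower, 4 of 10 NuRD partners were higher and 1 lower, and 1 of 7 INO80 partners was higher and 1 lower. SWI/SNF partners had 2 higher and 3 lower among 11 tested, and Hells (0.44 ± 0.23) and Atrx (0.022 ± 0.15) did not pass. Actl6b, the neuronal counterpart of Actl6a, had 0 counts in both RPF libraries and 1 and 0 in total RNA, and was not tested.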

How the data were processed

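RPF and total RNA libraries (2 each, labelled as biological replicates) were grouped by the sample titles. The authors deposited whole-number read counts for each gene, not normalised. Tools named in the submitters' processing notes are HTSeq 0.11.2, TopHat2 2.1.1, Bowtie 1.2.3 and edgeR 3.26.8, with mm9 as build. RPF samples were each run 4 times on the sequencer, per the labels. The sources used here do not give the annotation release, the strand setting, which features were counted or how the runs were joined. The tallies that name no gene took 32% to 43.4% of all tallied reads and stayed out of library sizes.

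Identifiers without version were matched to GENCODE M21 (GRCm38), which named 32621 of 37311 (87.4%). Coordinates are not given because builds differ. Lengths come from 1 principal transcript per gene, with coding length without the stop codon, which counts in the length after the coding sequence. The loess corrections instead used the coding share and the length of all annotated exon bases of a gene.

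Genes passing filterByExpr (minimum count 10, minimum total 15; 13809 genes) were fitted with edgeR 4.0.16 (R 4.3.3, limma 3.58.1) by fraction alone, with trimmed mean of M-values (TMM) factors of 0.821 to 1.18. Tests were two-sided. SE is the log2 ratio's size over the root of F, and ± CPM is the SD of 2 libraries. The fit was tested on simulated data. Alternatives were other scalings, filters, DESeq2 1.42.0, limma-voom, a replicate block, loess corrections (span 0.5) and leaving out each library.

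Members and lists were chosen with earlier results of these data known. Every member is named; motors at a mean of 10 CPM or more and the extremes of each role have values in every library, and from the partner list the 3 highest and 3 lowest passing genes at 10 CPM or more are named.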

Additional observations from a re-analysis of the deposited data

How the results depend on the processing

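Of the 17 member calls, 7 passed in every alternative (Smarcb1, Actl6a, Ino80b, Ino80e, Ruvbl1, Ruvbl2 and Ino80c), and no called member changed sign in any. Library size only moved the median log2 ratio of all genes to -0.46 and left 6 members higher and 11 lower, against 1223 and 4961 of all genes; the 12 uncalled members that changed sign were Smarcd1 (-0.12), Smarcd2 (-0.068), Smarce1 (-0.075), Arid1a (-0.42), Brd7 (-0.21), Brd9 (-0.031), Smarca5 (-0.17), Bptf (-0.38), Chd1l (-0.16), Chd3 (-0.42), Chd7 (-0.37) and Chd8 (-0.38). The loess correction for coding share turned Arid1a (-0.19), Bptf (-0.19), Chd3 (-0.23), Chd7 (-0.16) and Chd8 (-0.081). Coding share with exon length, an alternative added after seeing the data, gave 14 members higher and 3 lower (35% and 7.5%), against 2754 and 2289 of 13440 genes (20.5% and 17.0%), and turned Chd2 (0.15) and Chd3 (-0.061). A mean of at least 10 CPM, which left out Smarca2 and Smarcd3, turned Arid1a (-0.067), Bptf (-0.036), Chd3 (-0.081), Chd7 (-0.018) and Chd8 (-0.027). No count filter, with a median over all genes of -0.19, turned Arid1a (-0.028) and Chd3 (-0.039), protein-coding genes only turned Arid1a (-0.014) and Chd3 (-0.028), and limma-voom turned Chd3 (-0.056). Leaving out a library gave 8 to 15 members higher and 3 to 7 lower, and 1720 to 3341 of all genes higher and 1857 to 3440 lower; the lone library of a fraction is then assumed to vary like the other fraction's. The ranges that crossed 0 were those of Smarcd3 (-0.11 to 1.26), Smarca1 (-0.24 to 1.72), Arid1a (-0.20 to 0.22), Bptf (-0.087 to 0.18), Chd2 (-0.18 to 0.11), Chd3 (-0.59 to 0.45), Chd5 (-0.37 to 0.20), Chd7 (-0.29 to 0.52) and Chd8 (-0.0089 to 0.14). With the replicate block, 20 members were higher and 9 lower, 4257 of all genes were higher and 4365 lower (30.8% and 31.6%), all 17 member calls were kept and Chd3 turned (-0.025). The deviations of same-numbered libraries had a correlation of 0.41 over 13809 genes, but 2 pairs and no label for shared cultures do not establish a pairing. The cause of these shifts was not tested.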

Other observations

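Smarca5-ps, a processed pseudogene of Smarca5 with its own row in the files, had 29 and 28 counts in RPF and 236 and 187 counts in total RNA. Its log2 ratio was -2.43 ± 0.26 (edgeR, adjusted p = 0.00102), lower in each RPF library than in each total RNA library, while Smarca5 itself had 0.26 ± 0.15. Ino80dos, a noncoding RNA on the strand opposite to Ino80d, had 16 and 1 counts in RPF and 28 and 22 counts in total RNA and did not pass (-1.12 ± 0.78, adjusted p = 0.282). Its exons overlap 2.43% of the exon bases of Ino80d. Both genes were picked out after their values were seen.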
